A study of Mus musculus with 16 samples.

Results

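The lysosome is the acidic compartment in which a cell breaks down what it takes up and what it discards, and 44 of its genes were followed here in the brains of mice that form vessel calcifications. The genes were set by name as a list of lysosomal proteases, hydrolases and membrane proteins. All 44 matched a row of the deposited table of 21804 genes by Ensembl identifier, and all 44 passed the low-count filter in every comparison. By role they comprised 7 cysteine cathepsins, 4 other proteases, 13 hydrolases of sugar chains, 8 proteins of lipid breakdown and export, 11 membrane proteins and the granulin precursor. Their 9 members known as high in microglia and other macrophages (Ctss, Ctsc, Ctsh, Ctsz, Lgmn, Lyz2, Cd68, Laptm5 and Grn), called the macrophage members below, were also read apart from the other 35.

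Animals of 2 genotypes were compared, Pdgfb ret/ret and Pdgfb ret/wt, all C57BL/6 mice aged 4 months. The ret allele (retention) encodes PDGF-B without the stretch that keeps this growth factor beside the vessel wall, and every animal, controls included, carried at least 1 copy. The Pdgfb transcript was not analysed here. From each of 8 animals, 4 per genotype, 1 library was made from thalamus and 1 from cortex, which gave 4 groups of 4 libraries. Per the labels, calcifications were cut out of ret/ret brains by their fluorescence, matching tissue came from ret/wt animals, and cortex served as the region that does not calcify. In thalamus the genotype and the dissection of calcifications were therefore compared together and cannot be told apart. Whole tissue was sequenced, so more cells of a type and more RNA per cell cannot be told apart either.

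Newly made lysosomal enzymes are carried from the Golgi to the lysosome, mostly through a mannose 6-phosphate tag, and the acidity they need is kept by a proton pump in the lysosomal membrane. Many of their genes share a short promoter element that is bound by factors of the MiT/TFE family, of which TFEB is the best known. In brain, microglia hold large amounts of cathepsins and of CD68, while neurons, astrocytes and oligodendrocytes all need the same enzymes, and loss of many of them causes a lysosomal storage disease.

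The promoters of the members were searched for that element. The list was set by name and not by sequence, but the element is known from lysosomal genes, so a raised share is not independent of the list. RefSeq promoters on GRCm38.p6, 250 bases before to 50 after a gene's start, were at hand for 40 of the 44 members (44 promoters in all). The E-box core CACGTG, which reads the same on both strands, was in 14 of the 44 member promoters (31.8%) and in 7.15% of 32851 promoters of all genes. The longer TCACGTGA, which contains it, was in 13.6% of member promoters and 0.974% of all promoters, and the same letters with a G before and a C after were in 1 member promoter, that of Cln3, and in 0.326% of all. Of the 8 macrophage members with a promoter at hand, Lgmn alone had CACGTG, whereas GAGGAAGT, an ETS element of the kind bound by the myeloid factor PU.1, searched on both strands, was in the promoters of Ctss, Ctsc, Gusb and Gla (9.09% of member promoters, 3.2% of all). A match is a description of letters and not a measured binding site. The stretches below lie before a RefSeq start and overlap no exon of the GENCODE annotation, with the E-box in capitals. That of Lgmn lies inside the longest annotated extent of its gene. Lamp1 carried it 4 times, Gaa and Lgmn are 2 of the members called between regions below, and Glb1 and Ctsf show it in a hydrolase and a cathepsin outside the macrophage members. In Ctsc the capitals mark the ETS element as it reads on the gene's strand. Each stretch is written 5′ to 3′ on the gene's strand and comes from RefSeq on GRCm38.p6.
Lamp1 (chr8:13159080-13159160, + strand): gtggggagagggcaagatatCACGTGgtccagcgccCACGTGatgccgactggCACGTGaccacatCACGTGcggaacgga
Gaa (chr11:119267803-119267848, + strand): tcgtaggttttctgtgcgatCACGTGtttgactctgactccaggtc
Lgmn (chr12:102439116-102439161, - strand): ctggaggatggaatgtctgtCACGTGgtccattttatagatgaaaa
Glb1 (chr9:114401010-114401055, + strand): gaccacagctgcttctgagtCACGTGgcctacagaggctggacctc
Ctsf (chr19:4855066-4855111, + strand): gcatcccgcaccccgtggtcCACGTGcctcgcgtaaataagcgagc
Ctsc (chr7:88277914-88277961, + strand): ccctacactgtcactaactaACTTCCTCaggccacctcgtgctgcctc

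Total counts ran from 13415391 to 29135064 per library, and the members together took 0.533% to 0.896% of them. The lowest count of any member in any library was 52. Neuron markers summed to 4641 to 10430 CPM and astrocyte markers to 4128 to 8158 CPM per library, so both classes were present throughout. Several libraries stood apart. Genes of the cerebellum (Gabra6, Cbln3, Cbln1, Pcp2, Car8, Zic1, Zic2 and Ppp1r17) summed to 1894 CPM in ret/wt cortex replicate 3 and 4451 CPM in ret/ret cortex replicate 2, and to 18.1 to 58.3 CPM in the other 6 cortex libraries. CPM are counts relative to the library's total, scaled by TMM, a factor that evens out differences in composition between libraries. The same 2 animals alone carried reads of the Y-linked gene Ddx3y, at 55.2 to 68.7 CPM against 0.219 CPM at most elsewhere, and results were repeated without both animals. Among the members, ret/ret thalamus replicate 1 was the highest library of its group in 25 of 44 (30% over all genes), ret/ret cortex replicate 1, from the same animal, in 25 (27.4%), and ret/wt thalamus replicate 4 in 23 (32%).

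**Figure D1:**
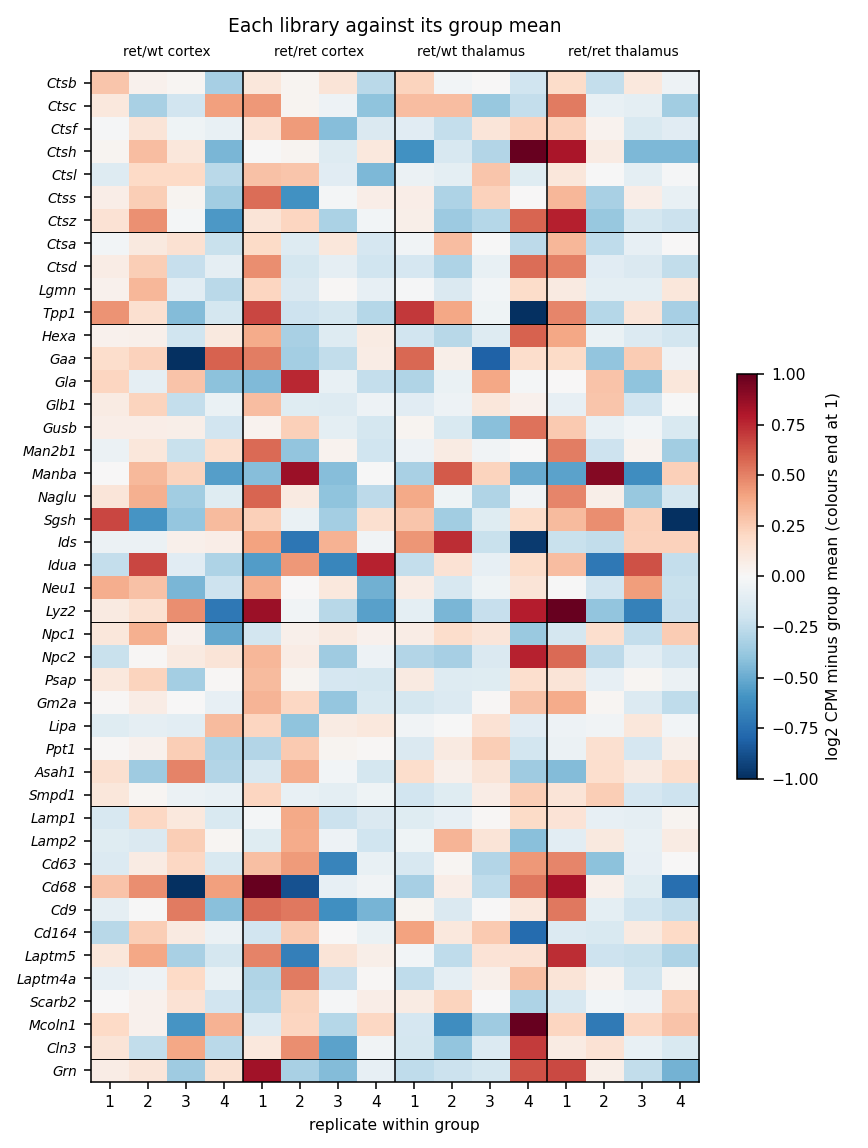
Rows are the 44 members by role, from cysteine cathepsins at the top to Grn at the bottom, columns are the 16 libraries by group, and colour is log2 CPM minus the mean of the library's group, with colours ending at 1. Red runs down most of ret/ret replicate 1 in both regions and much of ret/wt thalamus replicate 4, the libraries that were highest in 25, 25 and 23 members.

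Per kilobase of transcript, the saposin precursor Psap was the most abundant member, at 661 CPM per kb over all libraries, followed by the aspartic protease Ctsd at 246, the membrane protein Lamp1 at 213 and the cysteine protease Ctsb at 162. At the other end were the heparan sulfate enzymes Naglu at 2.70 and Sgsh at 2.98 CPM per kb, and Ctsc at 3.68. The macrophage members lay between 3.68 CPM per kb for Ctsc and 74.6 for Lgmn.

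The cysteine cathepsins and the other proteases cleave proteins inside the lysosome, and their levels are given here as mean ± SD in CPM with n = 4 per group. Ctsb, a broad cysteine protease, was at 743 ± 126 in ret/wt cortex, 718 ± 87.2 in ret/ret cortex, 803 ± 96.9 in ret/wt thalamus and 804 ± 102 in ret/ret thalamus. Ctsl, which processes peptides in many cell types, was at 106 ± 17.1 in ret/wt cortex, 111 ± 26.0 in ret/ret cortex, 136 ± 18.9 in ret/wt thalamus and 139 ± 8.25 in ret/ret thalamus. Ctsf, abundant in brain, was at 46.1 ± 2.97 in ret/wt cortex, 52.2 ± 13.1 in ret/ret cortex, 66.3 ± 9.83 in ret/wt thalamus and 66.0 ± 8.14 in ret/ret thalamus. For these 3 the genotypes overlapped in both regions. The other 4 are macrophage members. Ctss, which trims the invariant chain of MHC class II, was at 54.8 ± 9.02 in ret/wt cortex, 68.8 ± 22.3 in ret/ret cortex, 64.2 ± 9.69 in ret/wt thalamus and 103 ± 19.4 in ret/ret thalamus. Ctsc, the dipeptidyl peptidase that activates serine proteases of immune cells, was at 7.21 ± 1.68 in ret/wt cortex, 11.8 ± 2.85 in ret/ret cortex, 9.38 ± 2.30 in ret/wt thalamus and 13.7 ± 3.78 in ret/ret thalamus. Ctsh, an aminopeptidase, was at 9.41 ± 1.98 in ret/wt cortex, 14.6 ± 0.984 in ret/ret cortex, 13.9 ± 8.17 in ret/wt thalamus and 19.2 ± 8.74 in ret/ret thalamus, and Ctsz, a carboxypeptidase, at 30.4 ± 8.58 in ret/wt cortex, 36.7 ± 5.63 in ret/ret cortex, 33.7 ± 10.8 in ret/wt thalamus and 53.6 ± 22.3 in ret/ret thalamus. These 4 had their highest group mean in ret/ret thalamus, as did Ctsb and Ctsl by a narrow margin. For Ctsc and Ctsz, too, the genotypes overlapped in both regions. Of the other proteases, Ctsd was at 401 ± 58.0 in ret/wt cortex, 438 ± 104 in ret/ret cortex, 493 ± 144 in ret/wt thalamus and 663 ± 172 in ret/ret thalamus. Lgmn, the asparaginyl endopeptidase that matures several cathepsins, was at 108 ± 19.5 in ret/wt cortex, 116 ± 13.1 in ret/ret cortex, 165 ± 15.9 in ret/wt thalamus and 182 ± 14.6 in ret/ret thalamus. Ctsa, which shields the neuraminidase Neu1, averaged 76.7, 82.4, 85.7 and 97.1 CPM in the same order of groups, and Tpp1, the protease lost in a childhood form of ceroid lipofuscinosis, 80.3, 81.4, 83.8 and 91.7 CPM. Both differed between genotypes by less than 1 SD of a group in either region.

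The hydrolases of sugar chains take apart glycogen, glycolipids, glycoproteins and glycosaminoglycans, and each is given by its 4 group means in CPM in the order ret/wt cortex, ret/ret cortex, ret/wt thalamus and ret/ret thalamus. The enzymes of glycolipids were Hexa at 51.0, 53.4, 56.4 and 65.5, Glb1 at 24.3, 23.4, 26.7 and 23.7, Gla at 18.8, 22.8, 17.8 and 18.7 and the sialidase Neu1 at 56.1, 53.5, 52.4 and 51.0. Those of glycoproteins were Man2b1 at 41.6, 39.6, 34.5 and 46.6 and Manba at 14.99, 15.9, 16.8 and 20.5. Gaa, which breaks down glycogen, was the member of this group with the highest thalamus level, at 325, 265, 511 and 483. Among the enzymes of glycosaminoglycans, Ids had lower means in thalamus than in cortex, at 619, 561, 349 and 333. Its partners stood far lower, with Sgsh at 8.36, 12.5, 12.2 and 18.2, Idua at 10.5, 11.4, 13.9 and 14.9, Naglu at 6.62, 7.64, 6.38 and 6.99 and Gusb at 12.6, 14.3, 22.3 and 21.9. Lyz2, the lysozyme of macrophages, was at 8.01 ± 2.48 in ret/wt cortex, 15.4 ± 7.26 in ret/ret cortex, 12.2 ± 5.22 in ret/wt thalamus and 27.5 ± 20.2 in ret/ret thalamus. Its near-identical neighbour Lyz1 had 0 to 2 counts in any library, and reads that the copies share cannot be told apart.

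The lipid group spans enzymes, activator proteins and the exporters of cholesterol. Psap was at 1824 ± 288 in ret/wt cortex, 1785 ± 298 in ret/ret cortex, 1696 ± 176 in ret/wt thalamus and 1717 ± 115 in ret/ret thalamus, the highest CPM of any member in all 4 groups. Npc2, which hands cholesterol to the membrane exporter Npc1, was at 54.1 ± 5.68 in ret/wt cortex, 68.8 ± 13.4 in ret/ret cortex, 109.7 ± 45.2 in ret/wt thalamus and 129 ± 38.0 in ret/ret thalamus. Npc1 itself averaged 68.0, 59.6, 98.2 and 86.9 in the same order. Both had higher means in thalamus than in cortex in each genotype. Lipa, the acid lipase, averaged 22.4, 25.0, 36.7 and 37.4, the GM2 activator Gm2a 55.7, 76.3, 85.7 and 96.0, the sphingomyelinase Smpd1 119, 123, 112 and 125, the ceramidase Asah1 56.2, 64.0, 61.5 and 59.9 and the thioesterase Ppt1 127, 146, 139.6 and 143. The group means of Smpd1, Asah1 and Ppt1 lay close together.

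The membrane proteins line the lysosome or tether and move its contents. The main structural glycoproteins were Lamp1, at 364 ± 46.5 in ret/wt cortex, 432 ± 84.5 in ret/ret cortex, 519 ± 50.7 in ret/wt thalamus and 582 ± 43.1 in ret/ret thalamus, and Lamp2, needed for autophagy, at 80.3 ± 10.3 in ret/wt cortex, 90.7 ± 17.2 in ret/ret cortex, 95.2 ± 20.2 in ret/wt thalamus and 95.2 ± 7.07 in ret/ret thalamus. Scarb2, the receptor that delivers glucocerebrosidase, averaged 179, 191, 228 and 232 and Laptm4a 185, 238, 258 and 269. The tetraspanins Cd63 and Cd9 averaged 44.1, 47.3, 80.8 and 82.8 and 24.5, 28.6, 44.3 and 43.5, with higher means in thalamus than in cortex in each genotype. Cd164, a sialomucin, averaged 72.0, 63.1, 69.5 and 78.8, the calcium channel Mcoln1 50.7, 46.3, 54.2 and 55.4 and Cln3, lost in juvenile ceroid lipofuscinosis, 7.67, 8.62, 11.53 and 15.8. Of the macrophage members in this group, Cd68, a heavily glycosylated marker, was at 6.12 ± 2.47 in ret/wt cortex, 7.98 ± 4.45 in ret/ret cortex, 3.82 ± 1.11 in ret/wt thalamus and 8.49 ± 3.94 in ret/ret thalamus, and Laptm5 at 28.9 ± 6.48 in ret/wt cortex, 36.5 ± 11.3 in ret/ret cortex, 29.9 ± 3.75 in ret/wt thalamus and 43.0 ± 16.99 in ret/ret thalamus. Grn, whose product is cut into granulins in the lysosome, was at 51.4 ± 7.87 in ret/wt cortex, 60.6 ± 27.8 in ret/ret cortex, 53.7 ± 18.0 in ret/wt thalamus and 64.0 ± 23.3 in ret/ret thalamus.

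**Figure D2:**
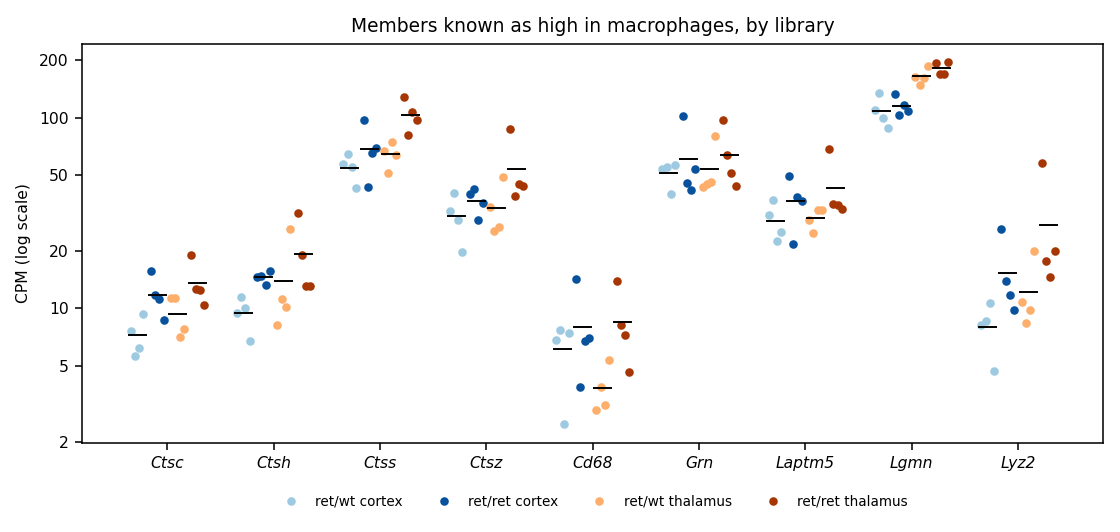
CPM on a log scale for the 9 macrophage members, with 4 points per group (1 per library, replicate 1 to 4 from left to right) and a bar at the group mean. In ret/ret thalamus the 4 points of Ctss (81.4 to 128) and Laptm5 (33.1 to 68.4) lie above those of ret/wt thalamus, and the other 7 overlap it.

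Calcified ret/ret thalamus was set against ret/wt thalamus to ask whether lysosomal genes differ where calcifications form. The 38 of 44 members with a positive log2 fold change (47.1% of all genes tested) had mostly small values, and none passed the test. The macrophage members had a positive value in 9 of 9 and a median log2 fold change of 0.58, against 29 of 35 and 0.07 for the other members and -0.02 for all genes. A gene was called where its Benjamini-Hochberg adjusted p, from the quasi-likelihood test of edgeR, was under 0.05, and of 14767 genes 0 were (0%), hence 0 of 44 members. The limma-voom test also called 0 genes. DESeq2 called 38 genes (0.257%) and 0 members. At an unadjusted p under 0.05, 3 of 44 members were higher in ret/ret and 0 lower, where 3.05% and 0.88% of all genes were (3.93% in all).

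Ctss (ENSMUSG00000038642, chromosome 3, 95526786 to 95556403, + strand, GENCODE annotation of GRCm38, as for all positions below) had the smallest p of the members. Its libraries were at 128, 81.4, 107 and 96.8 CPM in ret/ret thalamus and 66.8, 51.5, 74.8 and 63.9 CPM in ret/wt thalamus, replicates 1 to 4 in order. All 4 ret/ret values lay above all 4 ret/wt values, which was so for 1.7% of all genes and for 2 members. Ctss had a log2 fold change of 0.72 ± 0.20 (SE), an unadjusted p of 0.00444 and a Benjamini-Hochberg adjusted p of 0.932 (quasi-likelihood test of edgeR), the latter between 0.173 and 1.0 over the alternatives. Laptm5 (ENSMUSG00000028581, chromosome 4, 130913125 to 130936141, + strand), a membrane protein of blood-lineage cells, was the other member without overlap. It was at 68.4, 35.4, 35.01 and 33.1 CPM in ret/ret and 29.2, 24.9, 32.6 and 33.0 CPM in ret/wt thalamus, so that the gap between the nearest libraries was narrow and replicate 1 of ret/ret was far above the rest. Its log2 fold change was 0.55 ± 0.27 (SE, unadjusted p 0.0643 by edgeR), and 0.22 when that library was left out.

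Cd68 (ENSMUSG00000018774, chromosome 11, 69664213 to 69666153, - strand) was at 13.96, 8.13, 7.23 and 4.63 CPM in ret/ret and 2.94, 3.88, 3.11 and 5.36 CPM in ret/wt thalamus. Replicate 4 of ret/ret lay below replicate 4 of ret/wt, so the groups overlapped, and the log2 fold change was 1.18 ± 0.39 (SE, unadjusted p 0.0118 by edgeR). Lyz2 (ENSMUSG00000069516, chromosome 10, 117277331 to 117282321, - strand) was at 57.5, 17.8, 14.7 and 19.9 CPM in ret/ret and 10.8, 8.37, 9.81 and 19.9 CPM in ret/wt thalamus. Replicate 1 held far more than the other 3 ret/ret libraries. The log2 fold change of Lyz2 was 1.20 ± 0.47 (SE, unadjusted p 0.0295 by edgeR) and 0.53 without that library. Ctsd (ENSMUSG00000007891, chromosome 7, 142375911 to 142388038, - strand), the main aspartic protease, shares exons with the same-strand model Gm49369, so its reads are not cleanly its own. It was at 919, 599, 588 and 547 CPM in ret/ret and 426, 386, 454 and 705 CPM in ret/wt thalamus, with a log2 fold change of 0.45 ± 0.26 (SE). Leaving out ret/ret replicate 1 gave 0.24 and leaving out ret/wt replicate 4 gave 0.70, the library highest in each genotype. For Grn (ENSMUSG00000034708, chromosome 11, 102430315 to 102437048, + strand) the log2 fold change was 0.28 ± 0.31 (SE), and -0.01 without ret/ret replicate 1.

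The structural glycoproteins Lamp1 and Lamp2 and the protease Ctsb had no called difference in thalamus either. Lamp1 (ENSMUSG00000031447, chromosome 8, 13159161 to 13175338, + strand) was at 639, 551, 548 and 592 CPM in ret/ret and 476, 487, 522 and 589 CPM in ret/wt thalamus, a log2 fold change of 0.20 ± 0.16 (SE). Lamp2 (ENSMUSG00000016534, chromosome X, 38401357 to 38456454, - strand) had a log2 fold change of 0.04 with a 95% interval of -0.36 to 0.43, and Ctsb (ENSMUSG00000021939, chromosome 14, 63122462 to 63145923, + strand) one of 0.04 with an interval of -0.34 to 0.41. Both intervals end short of the log2 fold change of Ctss. Unadjusted p-values by edgeR were 0.113 for Ctsd, 0.386 for Grn, 0.257 for Lamp1, 0.847 for Lamp2 and 0.831 for Ctsb. By role, a positive log2 fold change was found in 7 of 7 cysteine cathepsins (median 0.49), 4 of 4 other proteases (0.20), 9 of 13 sugar-chain hydrolases (0.13), 6 of 8 lipid genes (0.06) and 11 of 11 membrane proteins (0.09). Leaving out both ret/ret replicate 1 and ret/wt replicate 4, an alternative chosen after seeing the data, left 34 of 44 members positive, with medians of 0.60 for the macrophage members and 0.06 for the others. With single libraries left out, the positive members ran from 30 to 40 of 44. Without ret/ret replicate 1 alone the macrophage median was 0.35. Members with an unadjusted p under 0.05 by edgeR ran from 2 to 10 with single libraries left out. They numbered 10 without ret/wt replicate 4, 7 without ret/ret replicate 4 and 5 without ret/ret replicate 2. Without the 2 animals with Y-linked reads they numbered 2. The share of all genes under 0.05 was not counted in these fits. Without the 2 animals with Y-linked reads 37 of 44 members were positive and the macrophage median was 0.68.

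**Figure D3:**
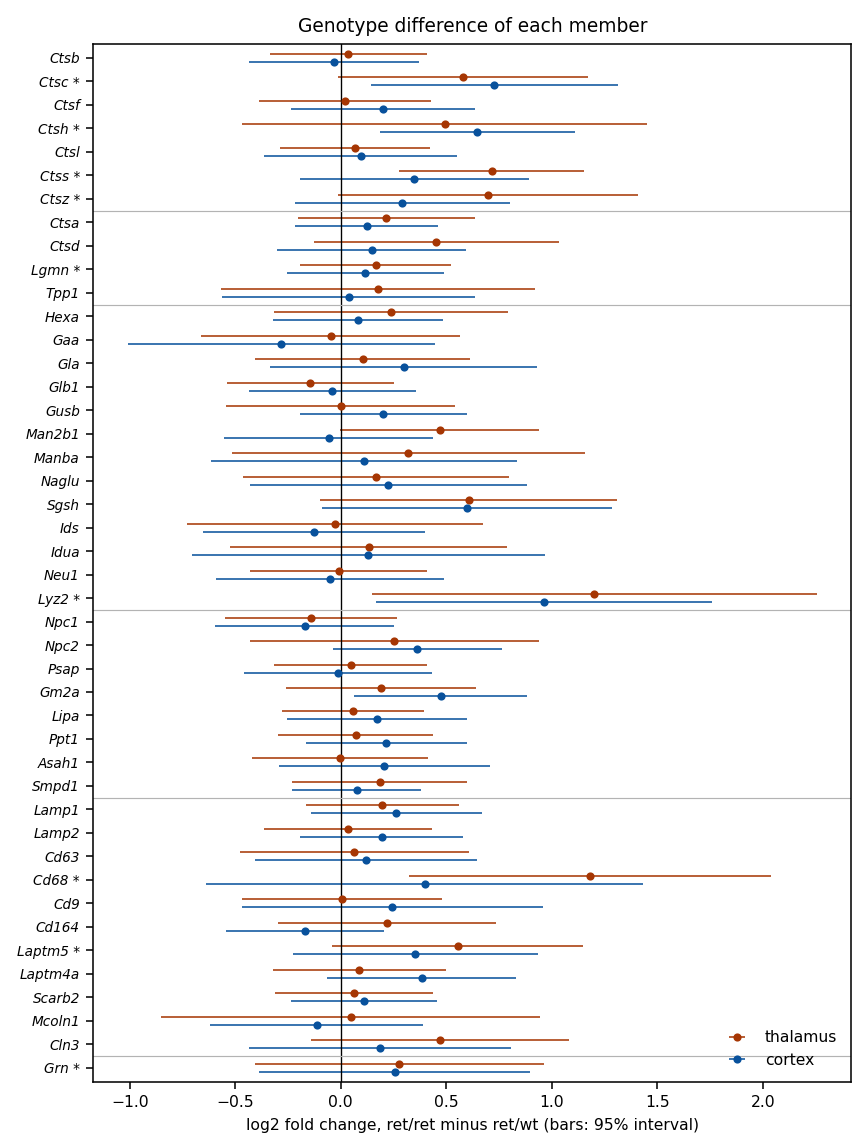
Points are log2 fold changes of ret/ret minus ret/wt for the 44 members by role, in thalamus (brown) and cortex (blue), with 95% intervals as bars, and an asterisk marks the 9 macrophage members. Lyz2 (1.20), Cd68 (1.18) and Ctss (0.72) lie farthest to the right in thalamus, and the intervals of the other 41 members cross 0 there.

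Markers of microglia had higher values in ret/ret thalamus beside the macrophage members. All 12 homeostatic microglia markers had a positive log2 fold change (median 0.63), 0 of them called, and their summed level was 496 to 633 CPM in ret/ret and 339 to 389 CPM in ret/wt thalamus, with no overlap. Cx3cr1, the fractalkine receptor, was at 61.2 ± 6.69 against 36.1 ± 5.02 CPM, Csf1r at 110.2 ± 23.4 against 74.2 ± 5.67 CPM, P2ry12 at 29.6 ± 3.07 against 19.2 ± 5.89 CPM and Tmem119 at 25.0 ± 7.01 against 17.6 ± 4.83 CPM (ret/ret first, mean ± SD, n = 4). Their log2 fold changes were 0.80 ± 0.17, 0.60 ± 0.19, 0.66 ± 0.23 and 0.53 ± 0.28 (SE), the last 0.35 without ret/ret replicate 1. Cx3cr1 had an adjusted p of 0.676 with edgeR and 0.00951 with DESeq2, the latter the lowest over its alternatives and 1.0 the highest. All 8 pan-myeloid markers, a list that shares Csf1r with the homeostatic one, had a positive value too (median 0.75). Of 12 markers of disease-associated microglia, 11 had a positive value (median 1.56). Of 7 tested markers of border-associated macrophages 1 had a positive value, and the 8 monocyte and granulocyte genes summed to 0.849 to 3.59 CPM in ret/ret and 1.05 to 5.62 CPM in ret/wt thalamus, with Camp at 0 in ret/ret. Positive values were found in 3 of 8 neuron, 5 of 8 astrocyte, 6 of 8 oligodendrocyte and 8 of 8 endothelial markers (median 0.56), in 5 of 6 reactive astrocyte (0.81) and 2 of 8 choroid plexus markers (-0.38), and in 1 of 8 markers of pericytes and smooth muscle, whose median was -0.76. The part of any of these cell types in the members' values was not tested.

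The rest of the lysosomal system was read from lists that were chosen with earlier results known. Of 87 further genes in the table, 85 were tested in thalamus, 0 were called (0%) by edgeR, 44 had a positive log2 fold change and the median was 0.01. Positive values were found in 15 of 19 other hydrolases, 9 of 18 other membrane and transport proteins, 4 of 11 sorting proteins and 4 of 6 protease inhibitors. Unadjusted p-values under 0.05 were found in 6, all of them higher in ret/ret. Among them were the hydrolases Ctso (68.0 ± 12.2 against 49.8 ± 4.75 CPM) and Man2b2 (40.0 ± 12.9 against 27.8 ± 5.42 CPM), the sorting protein Cln8 (66.1 ± 6.15 against 32.9 ± 12.3 CPM) and the cathepsin inhibitors Cst3 (1494 ± 644 against 849 ± 330.0 CPM) and Cst7 (cystatin F, at or under 3 counts in every ret/wt thalamus library). The log2 fold changes were 0.48 ± 0.18 for Ctso, 0.56 ± 0.25 for Man2b2, 1.05 ± 0.25 for Cln8 and 0.84 ± 0.36 for Cst3 (SE). Without ret/ret replicate 1, Man2b2 was at 0.30 and Cst3 at 0.50. Subunits of the proton pump had a positive value in 5 of 16 (median -0.10), and the MiT/TFE factors and their partners in 7 of 15 (median -0.01). Members with CACGTG in their promoter had a median log2 fold change of 0.17 (14 genes) and those without it 0.18 (26 genes).

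In cortex, the region without calcifications, the same genotype comparison also gave the members a small positive tilt. A positive log2 fold change was found in 34 of 44 members (51.9% of all genes), with a median of 0.18 against 0.01 for all genes, and the macrophage members were again 9 of 9, with a median of 0.35 against 0.12 for the other 35. With single libraries left out, the positive members ran from 26 to 37 of 44, so the size of this tilt leaned on single libraries. The quasi-likelihood test of edgeR called 3 of 14288 genes (0.021%; 0.014% higher and 0.007% lower), and no member was among them. DESeq2 called 39 genes (0.273%), limma-voom 2, and both called 0 members. At an unadjusted p under 0.05, 4 members were higher and 0 lower, where 2.62% and 1.14% of all genes were (3.77% in all).

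Ctsh (ENSMUSG00000032359, chromosome 9, 90054152 to 90076089, + strand) was the one member whose cortex groups did not overlap (1.58% of all genes higher in ret/ret). It was at 14.5, 14.8, 13.2 and 15.6 CPM in ret/ret and 9.42, 11.47, 10.02 and 6.73 CPM in ret/wt cortex. Ctsh had a log2 fold change of 0.65 ± 0.21 (SE; edgeR quasi-likelihood, unadjusted p 0.0109, Benjamini-Hochberg adjusted p 0.999). The other 3 with a small unadjusted p, named after their values were seen, were Lyz2 at 0.96 ± 0.36, Ctsc at 0.73 ± 0.26 and Gm2a at 0.47 ± 0.18 on the log2 scale (SE). In all 3, ret/ret replicate 1 was the highest library, and without it Lyz2 was at 0.58, Ctsc at 0.56 and Gm2a at 0.35, and the macrophage median at 0.17. That median was 0.54 without ret/ret replicate 2. Without the 2 animals whose cortex libraries held cerebellar reads, 32 of 44 members had a positive value, Ctsh was at 0.67 and Lyz2 at 1.17, and the unadjusted p was 0.065 for Ctsc and 0.097 for Gm2a by edgeR. In cortex the microglia level overlapped between genotypes, with summed markers of 297 to 619 CPM in ret/ret and 340 to 494 CPM in ret/wt. Positive log2 fold changes in cortex were found in 11 of 12 homeostatic microglia markers (median 0.15), 8 of 8 pan-myeloid (0.37), 7 of 8 oligodendrocyte (0.37), 6 of 8 endothelial (0.64), 6 of 8 astrocyte (0.17) and 4 of 6 reactive astrocyte markers (0.57), but in 0 of 6 of choroid plexus (-1.72) and 2 of 7 of pericytes and smooth muscle (-0.61). Their part in the members' values was not tested.

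Whether the genotype difference itself differed between thalamus and cortex was tested as an interaction over all 16 libraries. The main fit did not use the pairing of the regions by animal. The quasi-likelihood test of edgeR called 0 of 15286 genes (0%) and 0 of 44 members. An unadjusted p under 0.05 was found in 245 genes (1.6%; 0.89% higher and 0.713% lower) and in 0 members, and DESeq2 called 4 genes (0.0262%) and 0 members. With the animal as a block, the edgeR test gave 1 member an unadjusted p under 0.05 and called 0. The median interaction was 0.19 for the macrophage members and -0.01 for the others on the log2 scale. The first ran from -0.13 (without ret/ret thalamus replicate 1) to 0.38 (without ret/ret cortex replicate 1) with single libraries left out, so its sign rests on 1 library. The value farthest from 0 among the members was that of Cd68, at 0.77 ± 0.62 (SE), with a 95% interval of -0.53 to 2.08. A larger genotype difference in thalamus than in cortex was thus not shown for any member.

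Which members followed the microglia was read from the mean log2 CPM of the 12 homeostatic markers, called the microglia level. It was 4.90 to 5.17 in ret/ret thalamus and 4.26 to 4.47 in ret/wt thalamus, while the cortex libraries ran from 4.05 to 5.24 (ret/ret) and from 4.34 to 4.87 (ret/wt). The genotypes separated in thalamus, so no correlation across both genotypes is given for its 8 libraries, though the p-values of thalamus stayed in the adjustment below. In cortex they overlapped, and each member was correlated with the microglia level over the 8 libraries, 1 per animal.

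Laptm5 followed the microglia level most closely in cortex, with Pearson's r of 0.94 (exact permutation p 9.9e-05, adjusted p 0.0076 over 88 relations, 44 members in 2 regions) and Spearman's rho of 0.93 (exact permutation p 0.0022, adjusted p 0.0655). Without ret/ret replicate 2 and ret/wt replicate 3, the libraries farthest from the median, which are also those with cerebellar reads, r was 0.96. Ctss had r = 0.81 (exact permutation p 0.015, adjusted 0.133) and rho of 0.93 (exact permutation p 0.0022, adjusted 0.0655), Cd68 r = 0.86 (exact permutation p 0.0068, adjusted 0.0907) and rho of 0.67 (exact permutation p 0.083, adjusted 0.348), and the hydrolase Hexa r = 0.87 (exact permutation p 0.0062, adjusted 0.0907) and rho of 0.79 (exact permutation p 0.028, adjusted 0.205). Of the 44 members, Laptm5 was the one past the adjusted threshold, by Pearson's r alone. That adjusted p was set by the relation of Laptm5 in thalamus, which is among the 88. Without the same 2 libraries r was 0.98 for Ctss, 0.77 for Cd68 and 0.67 for Hexa. Lamp2 went the other way, with r = -0.77 (exact permutation p 0.027, adjusted 0.19) and rho of -0.43 (exact permutation p 0.30, adjusted 0.587), but r was 0.36 without those 2 libraries, so its relation rests on them. As a description, r was above 0.5 in 5 of 9 macrophage members and 9 of 35 others over the 8 libraries (18% of all genes), and in 9 of 9 and 13 of 35 over the remaining 6 (15.5% of all genes).

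The same reading over all 16 libraries, with each group set to its own mean, is a description with no test, since the libraries of 1 animal are not independent. The centred r was above 0.5 in 5 of 9 macrophage members (Laptm5 0.84, Cd68 0.78, Ctss 0.75, Grn 0.59 and Lgmn 0.57), in 5 of the other 35 (Man2b1 0.68, Hexa 0.66, Lipa 0.62, Ctsd 0.56 and Glb1 0.54) and in 10.2% of all genes. Medians were 0.57, 0.05 and -0.01. The macrophage members Lyz2 (0.26), Ctsh (0.20), Ctsz (0.15) and Ctsc (0.11) were lower. At the other end lay Lamp2 (-0.73), Asah1 (-0.69), Laptm4a (-0.65), Gla (-0.65), Scarb2 (-0.62), Ppt1 (-0.57) and Manba (-0.53), all of them outside the macrophage members. These values leaned on single libraries. Without ret/ret cortex replicate 1 the counts above 0.5 were 3 of 9 and 3 of 35, and without ret/ret cortex replicate 2 the second was 11 of 35. The regions also differed. The median centred r in cortex and thalamus was 0.58 and 0.80 for the macrophage members and -0.05 and 0.36 for the others. In the same order Lyz2 was at 0.11 and 0.94, Ctsz at -0.05 and 0.86 and Ctsh at 0.01 and 0.80. Ctsc stayed low, at 0.12 and 0.18. Laptm4a was at -0.95 and 0.73, Gla at -0.86 and 0.28 and Lipa at 0.73 and -0.39.

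**Figure D4:**
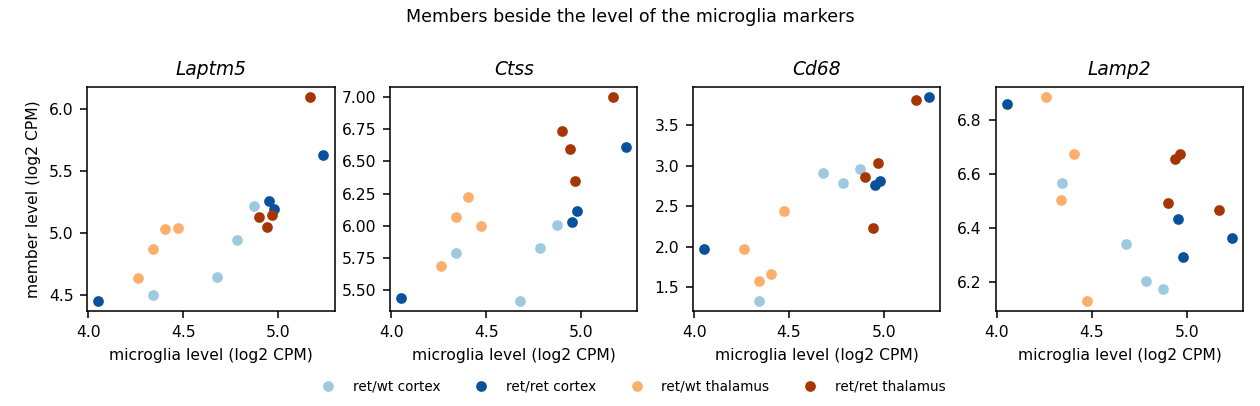
Each panel plots the log2 CPM of a member against the microglia level (mean log2 CPM of 12 homeostatic markers) for the 16 libraries, coloured by group. Laptm5, Ctss and Cd68 climb with the microglia level over the cortex libraries (r of 0.94, 0.81 and 0.86), while in Lamp2 the library with the lowest microglia level, ret/ret cortex replicate 2, is among the highest.

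The genotype differences of the members were then set against that of the microglia level, which 4 of 44 members exceeded in thalamus and 23 of 44 in cortex. In thalamus the microglia level was 0.62 higher in ret/ret than in ret/wt on the log2 scale. The genotype difference of Cd68 was 0.44 above that, of Lyz2 0.39, of Ctss 0.05 and of Ctsz 0.01, and the other 40 members, the 35 outside the macrophage members included, were below it. In cortex the microglia level differed by 0.14, and 8 of 9 macrophage members and 15 of the other 35 lay above that. These differences are descriptions with no test, and the margins of Ctss and Ctsz were small. The counts hold for the homeostatic markers alone. The 8 pan-myeloid markers averaged 4.01 log2 CPM in ret/ret and 3.23 in ret/wt thalamus, and 3.55 and 3.26 in cortex. Both gaps were wider than those of the microglia level, and the members were not counted against them. The share of all genes above the microglia level's difference was not counted. Their median log2 fold change was -0.02 in thalamus and 0.01 in cortex, so lying below that difference was not particular to the members.

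Thalamus was then compared with cortex within each genotype, and only here did members pass the threshold. In ret/wt animals 35 of 44 members had a positive log2 fold change, thalamus minus cortex (52.2% of all genes), and 6 rose past the threshold in thalamus while 0 fell, where 5.44% and 7.12% of 14442 genes did (12.6% in all). In ret/ret animals 37 of 44 were positive (48.7%), 4 rose and 0 fell, where 4.1% and 5.4% of 14715 genes did (9.5% in all). The share of members called was thus close to that of all genes in each genotype, though every called member was higher in thalamus. These calls come from the quasi-likelihood test of edgeR, Benjamini-Hochberg adjusted. At an unadjusted p under 0.05 there were 11 members higher and 1 lower in each genotype, where 27.0% of all genes in ret/wt and 26.7% in ret/ret were past it. With the animal as a replicate block, since both regions came from the same animals, 1 member was called in ret/wt in place of 6, and 3 in place of 4 in ret/ret, where Cln3 was at an adjusted p of 0.0513 by the same edgeR test (0.00567 to 0.119 over its alternatives). Upper-quartile scaling moved the median of all genes by 0.12 in ret/ret and 0.10 in ret/wt.

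In ret/wt animals the called members were the lipid proteins Npc2, Lipa and Gm2a, the tetraspanins Cd63 and Cd9 and the glucuronidase Gusb. Npc2 (ENSMUSG00000021242, chromosome 12, 84754562 to 84773152, - strand) was at 84.8, 82.8, 94.2 and 177 CPM in thalamus and 46.1, 54.4, 57.2 and 58.9 CPM in cortex of ret/wt animals. Npc2 rose by 1.04 ± 0.27 on the log2 scale (SE; adjusted p 0.0304, edgeR quasi-likelihood). All 4 thalamus libraries exceeded all 4 cortex libraries, and replicate 4 was far above the others. Cd63 (ENSMUSG00000025351, chromosome 10, 128900989 to 128912822, + strand) was at 71.0, 80.4, 64.7 and 107 CPM in thalamus and 39.8, 46.5, 50.7 and 39.5 CPM in cortex, a log2 fold change of 0.89 ± 0.21 (SE; adjusted p 0.0201, edgeR quasi-likelihood). Cd9, a tetraspanin also known from myelin, was at 45.1, 40.0, 44.4 and 47.7 CPM in thalamus and 22.3, 23.7, 34.2 and 17.8 CPM in cortex. Its log2 fold change was 0.87 ± 0.22, that of Lipa 0.72 ± 0.18, of Gusb 0.84 ± 0.25 and of Gm2a 0.64 ± 0.18 (SE), with adjusted p-values of 0.028, 0.0254, 0.049 and 0.0386 (edgeR quasi-likelihood). In all 6 called members the regions did not overlap, as in 11 members higher and 1 lower in all (8.97% and 11% of all genes). With the animal as a block, Npc2 alone of the 6 stayed called. The adjusted p-values of that edgeR fit were 0.0519 for Cd9, 0.0576 for Cd63, 0.0611 for Lipa, 0.092 for Gm2a and 0.113 for Gusb.

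In ret/ret animals the called members were Lgmn, Npc2, Gaa and Cln3. Lgmn (ENSMUSG00000021190, chromosome 12, 102394084 to 102439813, - strand) was at 193, 169, 169 and 196 CPM in thalamus and 134, 104, 116 and 109 CPM in cortex of ret/ret animals, a log2 fold change of 0.66 ± 0.14 (SE; adjusted p 0.022, edgeR quasi-likelihood). Every thalamus library was above every cortex library, which was so for 6 members (8.18% of all genes), and the reverse for 0 (9.27%). Gaa (ENSMUSG00000025579, chromosome 11, 119267887 to 119285454, + strand), the glycogen hydrolase, was at 544, 362, 567 and 459.5 CPM in thalamus and 367, 203, 218 and 271 CPM in cortex, and thalamus replicate 2 lay just below cortex replicate 1, so the regions overlapped. Its log2 fold change was 0.87 ± 0.23 (SE), that of Npc2 0.91 ± 0.23 and that of Cln3 0.87 ± 0.24, with adjusted p-values of 0.0449, 0.0372 and 0.0486 (edgeR quasi-likelihood). For the same genes in ret/wt animals the log2 fold changes were 0.63 for Lgmn, 0.66 for Gaa and 0.60 for Cln3, and for the 6 members called in ret/wt the ret/ret values were 0.91 (Npc2), 0.81 (Cd63), 0.59 (Lipa), 0.61 (Cd9), 0.62 (Gusb) and 0.33 (Gm2a). The interaction above is the test of these differences between genotypes, and it called 0 members. Of the 4 called members in ret/ret, 3 had CACGTG in their promoter (Lgmn, Gaa and Cln3), and of the 6 in ret/wt 0 did. Of the 40 members with a promoter at hand, 14 had it. Their median regional log2 fold change was 0.34 in ret/ret and 0.35 in ret/wt, against 0.26 and 0.21 for the 26 without it. A link of the element with genotype was not tested.

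Ids (ENSMUSG00000035847, chromosome X, 70343069 to 70365084, - strand), the sulfatase of heparan and dermatan sulfate that is lost in Hunter syndrome, had the most negative value of the 44 members in both genotypes. It was at 432, 529, 272 and 164 CPM in thalamus and 593, 593, 642 and 649 CPM in cortex of ret/wt animals, with no overlap. In ret/ret animals it was at 282, 278, 387 and 387 CPM in thalamus and 711, 326, 683 and 524 CPM in cortex, where cortex replicate 2, one of the libraries with cerebellar reads, was the lowest of the cortex and overlapped with thalamus. The log2 fold changes were -0.82 ± 0.31 and -0.75 ± 0.26 (SE), and neither passed the threshold, with adjusted p-values of 0.115 and 0.099 (edgeR quasi-likelihood). Ids was singled out after its values were seen.

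Markers of oligodendrocytes also differed between the regions. All 8 such markers were called higher in ret/wt thalamus than cortex (median log2 fold change 1.80) and 7 of 8 in ret/ret (1.56), with summed levels of 9722 to 11710 CPM in ret/wt thalamus and 1826 to 4550 CPM in ret/wt cortex, and with no overlap in ret/ret either. Homeostatic microglia markers had a median of -0.36 in ret/wt and 0.09 in ret/ret, with 0 called by edgeR in either, and macrophage members a median of 0.24 in ret/wt and 0.41 in ret/ret. Without ret/ret thalamus replicate 1 the macrophage median in ret/ret was 0.05, and without ret/wt thalamus replicate 4 that in ret/wt was 0.06. Positive values, thalamus minus cortex, were also found in 8 of 8 (ret/wt) and 6 of 8 (ret/ret) endothelial markers, in 7 of 8 and 6 of 6 of pericytes and smooth muscle, and in 6 of 8 and 5 of 8 of astrocytes, while neuron markers were positive in 3 of 8 in each. The part of any of these cell types in the members' values was not tested. Without the 2 animals whose cortex held cerebellar reads, 8 members were called in ret/ret and 2 in ret/wt. Calls over all genes in ret/ret rose from 1398 to 2564 in that fit. When single libraries were left out the counts of called members ran from 0 to 6 and from 0 to 5, and they reached 0 without ret/ret thalamus replicate 1, ret/ret thalamus replicate 4, ret/ret cortex replicate 3, ret/ret cortex replicate 4 or ret/wt cortex replicate 1. In ret/ret the count was 1 without thalamus replicate 3 and 6 without cortex replicate 2, and in ret/wt it was 3 or fewer without any library other than thalamus replicate 4.

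**Figure D5:**
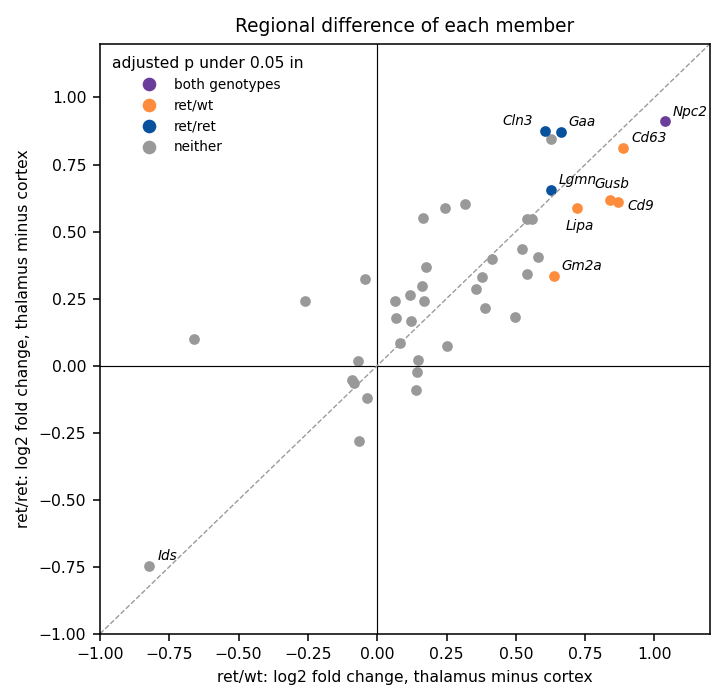
Each point is a member, with its log2 fold change of thalamus minus cortex in ret/wt animals on the x axis and in ret/ret animals on the y axis, coloured by the genotype in which its adjusted p was under 0.05, and the dashed line marks equal values. Npc2, called in both, lies at the upper right (1.04 and 0.91), and Ids at the lower left (-0.82 and -0.75).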

How the data were processed

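RNA from 16 tissue pieces was selected by its poly(A) tail and sequenced as stranded libraries, per the labels' protocols. The authors deposited 1 table of expected counts per gene, made with kallisto 0.44.0 on GRCm38.p6 per the submitters' processing notes, and how transcripts were summed to genes is not given in the sources used here. The values were rounded to whole numbers, and 99.0% of 21804 identifiers had a symbol. Genes were filtered with filterByExpr (minimum count 10, minimum total 15), scaled by TMM and tested with edgeR 4.0.16 in R 4.3.3 (quasi-likelihood, Benjamini-Hochberg adjustment, threshold 0.05), each pair of groups on its own 8 libraries and the interaction on all 16. CPM were scaled over all 16 libraries, and log2 CPM used a prior count of 1. DESeq2 1.42.0, limma 3.58.1 and other filters, scalings and left-out libraries were alternatives, and the tests were checked on simulated counts. There DESeq2 made more false calls than edgeR in every comparison, and edgeR found few of the smaller planted differences. Exact permutation tests were two-sided.

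The members, their lists and the alternatives were chosen with earlier results of these data known. Levels were given for every member. Fold changes were given for members called or without overlap in a genotype comparison, always for Ctsd, Ctsb, Ctss, Cd68, Lyz2, Lamp1, Lamp2 and Grn in thalamus, for members called between regions, and from the other lists for genes with an unadjusted p under 0.05 and fixed microglia markers, of which 1 is not reported here. Ctsc, Gm2a and Lyz2 in cortex and Ids were added after their values were seen. Both regions came from the same animals, so replicate numbers pair the samples there. Deviations of same-animal libraries correlated at 0.09 on average in ret/ret and 0.06 in ret/wt (-0.03 and -0.02 for other numbers), and at 0.26 and 0.22 over the members alone. Of the 44 members, 14 overlap exons of another gene, 3 of them on the same strand (Ctsd, Ctsl and Glb1).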

Additional observations from a re-analysis of the deposited data

Results flagged for a closer look

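In 21 of the 176 groups of 4 values (44 members in 4 groups), in 18 members, 1 library lay so far from the other 3 that its gap to the nearest, as a share of the group's range, passed Dixon's 95% critical value. Chance alone gives about 1 in 20 such groups where values are independent and normally distributed. The values here are unlogged CPM of genes that share libraries, and the same share over all genes was not counted. No explanation of these values was tested.

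In ret/ret thalamus, replicate 1 stood apart in 7 members. It was high for Ctsd (918.7 CPM, others 547.3 to 599.3), Ctsz (86.89, others 38.93 to 44.95), Cd9 (61.18, others 35.98 to 39.74), Npc2 (185.4, others 104.3 to 116.2), Laptm5 (68.4, others 33.06 to 35.4) and Lyz2 (57.54, others 14.65 to 19.93), and low for the ceramidase Asah1 (43.71, others 62.85 to 66.77). Replicate 2 was low for the channel Mcoln1 (32.72, others 61.64 to 65.26). The cortex of the same animal as replicate 1 was high for Ctsd (593.5 CPM, others 373.4 to 403.9), Tpp1 (124.1, others 64.34 to 69.47) and Glb1 (28.68, others 21.25 to 22.34).

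In ret/wt thalamus, replicate 4 was high for Ctsh (25.97 CPM, others 8.161 to 11.15), Grn (80.56, others 43.52 to 45.86), Hexa (82.31, others 45.2 to 50.17), Npc2 (177.1, others 82.8 to 94.17) and Mcoln1 (105.8, others 31.06 to 42.57). Replicate 3 was high for Ctsl (164.0 CPM, others 124.0 to 129.4). In ret/wt cortex the values apart were spread over 3 libraries: Laptm4a in replicate 3 (211.7 CPM, others 173.7 to 178.1), Idua in replicate 2 (16.08, others 8.144 to 9.32), and, in replicate 4, Lipa, which was high (27.69, others 20.41 to 20.9), and Gusb, which was low (11.02, others 13.1 to 13.19).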

How the results depend on the processing

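No member was called between genotypes, or in the interaction, under any alternative run. With the microglia level as a covariate, 10 of 44 members had a positive value in thalamus, and these log2 fold changes changed sign: Ctsd -1.66, Ctsb -0.20, Ctss -0.38, Cd68 -1.24, Lyz2 -3.19, Lamp1 -0.56, Grn -2.23, Laptm5 -1.71, Csf1r -0.58, Tmem119 -1.48, Ctso -0.22, Man2b2 -0.48 and Cst3 -1.71. Csf1r and Tmem119 are among the 12 markers averaged into that covariate, so their change of sign cannot be read apart from it. That covariate separates the genotypes there, so its share and that of genotype cannot be told apart. With single libraries left out, Ctsb ran from -0.037 (without ret/ret thalamus replicate 1) to 0.113 and was -0.0081 without ret/wt thalamus replicate 4, Lamp2 ran from -0.072 (without that library) to 0.149, and Grn from -0.0050 (without ret/ret replicate 1) to 0.571. Without both libraries, chosen after seeing the data, Ctsb was at -0.081 and Lamp2 at -0.045.

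Members called between regions in ret/ret (4) numbered 7 with upper-quartile scaling, 7 with the 1 CPM filter, 9 with DESeq2 (17.6% of all genes), 8 without the 2 animals with Y-linked reads, 3 with the replicate block and 0 to 6 with single libraries left out. In ret/wt (6) they numbered 1 with the replicate block (the animal), 0 with the microglia covariate, 2 without those animals, 9 with DESeq2 (17.9% of all genes) and 0 to 5 with single libraries left out. At several of these settings the calls over all genes moved as well, as given below. Members with a centred r above 0.5 ran from 3 to 6 of 9 macrophage members and 3 to 11 of the others with single libraries left out, and the others numbered 11 without the 2 libraries farthest from the median microglia level. Over all genes, DESeq2 called 38 in thalamus, 39 in cortex, 2591 between regions in ret/ret and 4 in the interaction. The fit of all 16 libraries called 3 in thalamus and 7 in cortex. Cortex calls (3) were 0 with the replicate block, where numbers stand for different animals, 5 with the covariate, 1 without the Y-linked animals and 0 to 2 with single libraries left out. Calls between regions in ret/ret (1398) were 2564 without those animals and 627 to 2007 with single libraries left out, and in ret/wt (1813) 599 with the covariate and 1178 to 1797. The cause of these changes was not tested. The spread between 4 animals left a median 95% interval of 0.51 to either side in thalamus and 0.48 in cortex on the log2 scale.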
